A study of Mus musculus with 9 samples.

Results

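The genes described here encode proteins that build ribosomes in the nucleolus. They were taken from a list of 40 symbols, and a gene was included where the array held a probe set that the annotation ties to that gene alone. Of the 40 symbols, 39 had such a probe set and all 39 passed the filter on low values, among 19938 genes with a single-gene probe set and 16323 genes tested. The remaining symbol, Noc2l, had no single-gene probe set. Where a gene had several probe sets, the one with the highest mean over the 9 arrays stood for it.

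Ribosome production starts when RNA polymerase I transcribes the ribosomal DNA repeats in the nucleolus. Small nucleolar RNAs, bound in box C/D or box H/ACA protein complexes, then guide the methylation and pseudouridylation of the precursor RNA, while large assemblies of processing factors cut it and fold it into the small and the large subunit. Growing and dividing cells make many ribosomes, and Myc proteins are known activators of this programme. In the developing cerebellum, granule neuron progenitors divide in response to Hedgehog signals, and they are the known cells of origin of Hedgehog-driven medulloblastoma.

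RNA abundance was measured at postnatal day 13 in 3 groups of 3 samples each. The groups were cerebellum of wildtype mice, cerebellum labelled SufuKO and medulloblastoma tumour labelled Ptch1KO, and Sufu and Ptch1 both encode brakes on Hedgehog signalling. The platform was the Affymetrix Mouse Gene 1.0 ST array, with 1 array per sample. The labels give no strain, sex, deleted exon or Cre driver. They also do not state that replicates were different mice, and p-values therefore measure only how these samples scatter, which may be technical. Values are on the log2 scale, on which a difference of 1 is a doubling, and the small number of arrays limits the precision of each.

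The labels and the arrays were checked first. Sufu read 1.86-fold lower in Sufu KO than in wildtype (log2 difference -0.89 ± 0.08, SE, limma adjusted p = 9.70e-06). Ptch1 read 2.03-fold higher in the tumours (1.02 ± 0.08, adjusted p = 3.69e-07), which does not check that label, since the deleted part is not known. The female-specific RNA Xist was high on 3 of 3 wildtype arrays and on 1 of 3 in each mutant group. All 16 tested genes of mitosis rose in both mutants, and their summed linear level ran from 1409 to 1740 in wildtype, from 5326 to 6004 in Sufu KO and from 8405 to 12284 in the tumours. The 8 markers of granule neuron progenitors summed to 1970 to 2481, 6289 to 6512 and 8556 to 10882 in the same order. Singly, 7 of the 8 rose in Sufu KO and 8 in the tumours. The other read -0.12 in Sufu KO and was not called. Between tumours and Sufu KO, 7 were called higher and 1 lower (-0.57). The 7 tested Purkinje cell markers and the 7 tested markers of mature oligodendrocytes fell in both mutants. Of 8 astrocyte and Bergmann glia markers, 6 fell in each mutant. Of 7 endothelial and pericyte markers, 3 fell in Sufu KO and 7 in the tumours. Among 5 markers of oligodendrocyte precursors, 3 rose and 1 fell in the tumours, and 1 rose and 2 fell in Sufu KO. Of 7 microglial markers, 3 rose in the tumours and 1 in Sufu KO. The summed level of the 11 markers of mature granule neurons fell, from 30346 to 33647 in wildtype, 20852 to 22581 in Sufu KO and 10428 to 14717 in the tumours. Singly, 8 of the 11 fell in Sufu KO and 10 in the tumours, and 0 rose. In Sufu KO 1 marker read above wildtype (0.07) and was not called. Of all tested genes, 13% rose and 12.4% fell in Sufu KO, and 22.1% rose and 24.7% fell in the tumours. A larger share of dividing cells and more RNA per cell cannot be told apart in these tissue samples, and the part of cell composition in the results that follow was not tested.

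Most of the ribosome biogenesis genes rose in the tumours, and fewer than 1 in 2 rose in Sufu KO. In the tumours 34 of 39 rose and 0 fell, against 22.1% of all tested genes called higher and 24.7% called lower. Their median log2 difference was 0.66, against -0.01 over all tested genes. In Sufu KO 17 of 39 rose and 0 fell, against 13% of all tested genes called higher and 12.4% lower, with a median of 0.23 against -0.01. Compared directly, 27 of 39 were higher in the tumours than in Sufu KO and 0 were lower, against 12.2% of all tested genes called higher and 17.5% lower, with a median of 0.39. The 3 counts share samples and are given side by side. At an unadjusted limma p under 0.05, the genes on the lower side numbered 0 in the tumours, 0 between the mutants and 1 in Sufu KO, Rrs1, and with array weights Nop10 and Rrs1 were called lower in Sufu KO.

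**Figure D1:**
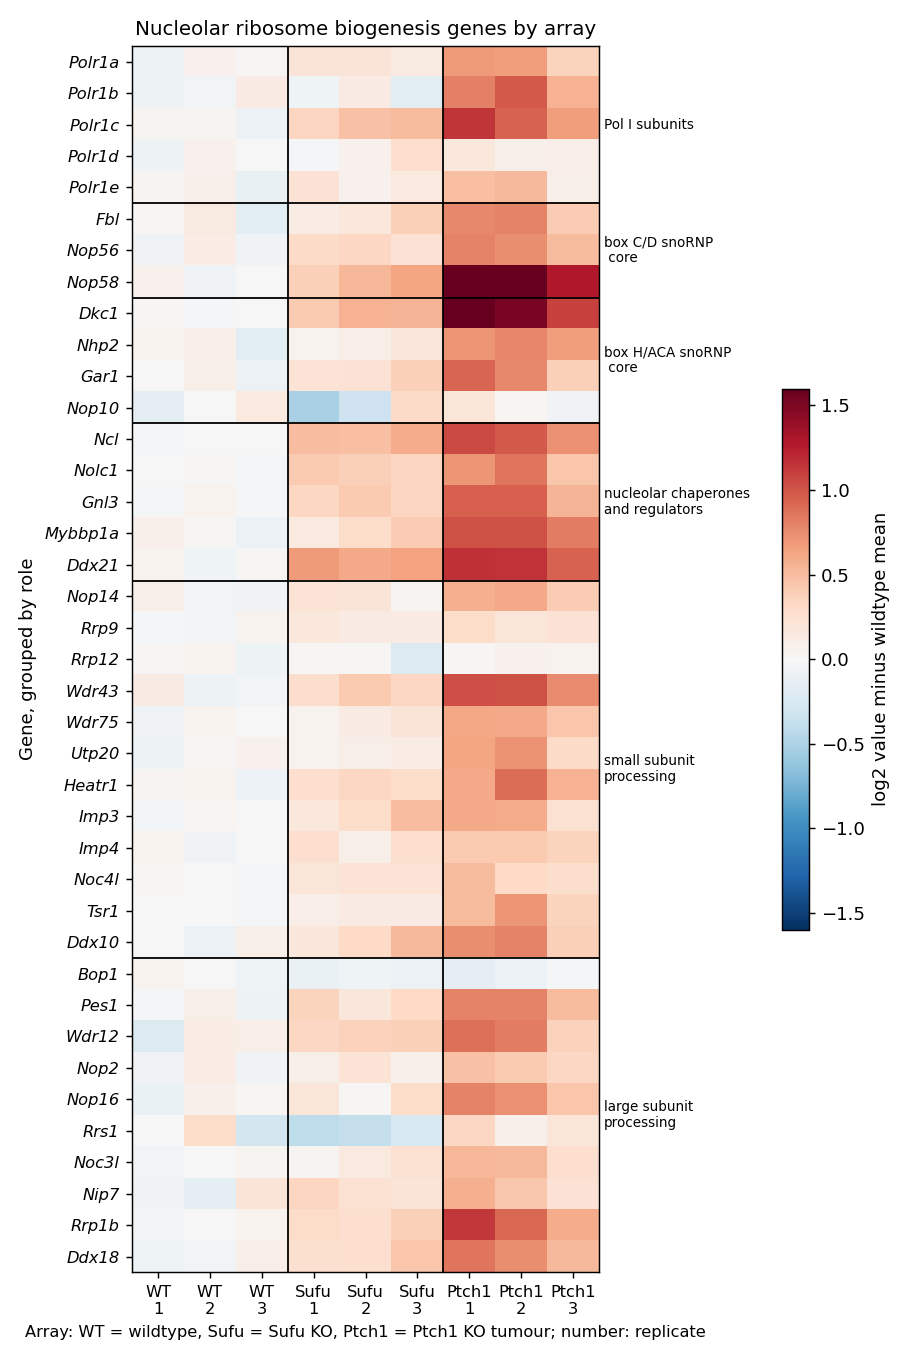
Log2 value of each of the 39 genes on each of the 9 arrays, minus the mean of that gene in wildtype, with genes in rows grouped by role and arrays in columns. Red is above and blue below wildtype; Nop58 and Dkc1 are the darkest in the tumours, and Bop1, Rrp12, Polr1d, Nop10 and Rrs1 stay pale or turn blue.

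The shift was visible array by array. The median over the 39 genes, each taken relative to its wildtype mean, was 0.21, 0.22 and 0.29 on the Sufu KO arrays and 0.70, 0.74 and 0.40 on the tumour arrays. Tumour replicate 3 was therefore the lowest of the tumours, although above every Sufu KO array. It held the lowest of the 3 tumour values for 33 of the 34 genes that rose, and for 76.8% of all genes called higher in the tumours. In 20 of 39 genes every array followed the order wildtype, Sufu KO, tumour without overlap, against 8.6% of tested genes, and 0 of 39 followed the falling order, against 11.1%. In 35 of 39 genes every tumour array lay above every wildtype array, against 26.4% of tested genes. The same held for 24 of 39 genes between Sufu KO and wildtype, against 21.3%, and for 29 of 39 between tumours and Sufu KO, against 16.1%. The reverse separation was found for 0 of 39 genes in each comparison, against 30.2% of tested genes for tumours and wildtype, 19.6% for Sufu KO and wildtype and 23.6% for tumours and Sufu KO.

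Counts by role are small and are read against the same background of 22.1% called higher in the tumours and 13% in Sufu KO. Of the 5 RNA polymerase I subunits, 4 rose in the tumours and 1 in Sufu KO. Polr1c, a subunit shared with RNA polymerase III, read 8.66, 8.67 and 8.52 in wildtype, 8.96, 9.09 and 9.12 in Sufu KO and 9.76, 9.56 and 9.28 in the tumours. Every Sufu KO array lay above wildtype and below the tumours, and the rise was 1.36-fold in Sufu KO (log2 difference 0.44 ± 0.11, SE, adjusted p = 0.00853). The tumour rise was 1.89-fold (adjusted p = 1.32e-05). Polr1b, the second-largest subunit of the core enzyme, read 8.29, 8.33 and 8.51 in wildtype and 8.31, 8.51 and 8.21 in Sufu KO. These groups overlapped, and the 95% interval of the log2 difference ran from -0.28 to 0.21. In the tumours Polr1b read 9.18, 9.36 and 8.93, above every other array, and rose 1.72-fold against wildtype (adjusted p = 8.56e-05) and 1.76-fold against Sufu KO (adjusted p = 0.000192). Polr1a, the largest subunit, was up 1.49-fold in tumour (adjusted p = 0.000164), with a Sufu KO difference of 0.19 (adjusted p = 0.156). Polr1e, a subunit that helps initiation, rose 1.29-fold in the tumours (adjusted p = 0.0133). That call ended without wildtype replicate 3 (adjusted p = 0.0604), without tumour replicate 1 (0.0606) or 2 (0.0659) and in an unmoderated model (0.0622), and over all alternatives the adjusted p ran from 0.000394 to 0.0659. Polr1d, another subunit shared with RNA polymerase III, was called in no comparison, with log2 differences of 0.10 in Sufu KO and 0.12 in the tumours.

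The core proteins of box C/D particles, which guide methylation of ribosomal RNA, rose in the tumours in 3 of 3 cases and in Sufu KO in 2 of 3. Nop58, a scaffold protein of the particle, had the largest tumour difference of the 39 genes. It read 7.43, 7.30 and 7.36 in wildtype, 7.75, 7.89 and 8.00 in Sufu KO and 8.96, 9.04 and 8.65 in the tumours. The 3 groups did not overlap, and Nop58 was 1.43-fold higher in Sufu KO (0.52 ± 0.10, SE, adjusted p = 0.00281) against 2.87-fold in the tumours (1.52 ± 0.10, adjusted p = 1.74e-07). Nop56, its partner in the same particle, rose 1.22-fold (adjusted p = 0.0274) and 1.61-fold (adjusted p = 2.97e-05). Fbl, the methyltransferase fibrillarin, was up 1.58-fold in tumour (adjusted p = 0.000401) and did not pass in Sufu KO, where its difference was 0.23 (adjusted p = 0.183).

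Of the 4 core proteins of box H/ACA particles, which guide pseudouridylation, 3 rose in the tumours and 1 in Sufu KO. Dkc1, the pseudouridine synthase dyskerin, read 7.87, 7.81 and 7.83 in wildtype, 8.26, 8.40 and 8.38 in Sufu KO and 9.43, 9.35 and 8.93 in the tumours. Its groups did not overlap, with a Sufu KO rise of 1.42-fold (adjusted p = 0.00483) and a tumour rise of 2.64-fold (adjusted p = 5.71e-07). Dkc1 lies on the X chromosome. With sex, as read from Xist, as a covariate both calls were kept, at adjusted p values of 0.00805 and 3.18e-06. Sex varied only within the mutant groups, since Xist was high on every wildtype array, so it partly coincides with genotype. Nhp2, an RNA-binding subunit, read 7.05, 7.10 and 6.82 in wildtype and 7.69, 7.77 and 7.65 in the tumours, a 1.64-fold rise (adjusted p = 1.15e-05). Its Sufu KO arrays, at 7.05, 7.09 and 7.16, overlapped wildtype, and the difference of 0.11 did not pass. Gar1, a subunit at the catalytic site, rose 1.61-fold in the tumours (adjusted p = 0.000383). Nop10, the smallest subunit, was called in no comparison when all arrays were fitted with equal weight. Its Sufu KO arrays scattered most, at 8.67, 8.86 and 9.49, around wildtype values of 9.03, 9.18 and 9.34, and the tumours read 9.38, 9.22 and 9.12. The Sufu KO difference of -0.18 became -0.42 and passed without Sufu KO replicate 3 (adjusted p = 0.0142), and it was -0.01 without Sufu KO replicate 1. The difference between tumours and Sufu KO, 0.24, became 0.48 and passed without Sufu KO replicate 3 (adjusted p = 0.00544) and was 0.41 with array weights (adjusted p = 0.00335).

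All 5 nucleolar chaperones and regulators rose in both mutants. Ddx21, an RNA helicase that acts in ribosomal RNA transcription and processing, had the largest Sufu KO difference of the 39 genes. It read 7.69, 7.56 and 7.65 in wildtype, 8.32, 8.25 and 8.28 in Sufu KO and 8.81, 8.80 and 8.58 in the tumours. These values did not overlap, and Ddx21 rose 1.57-fold (0.65 ± 0.08, SE, adjusted p = 8.71e-05) and 2.13-fold (1.09 ± 0.08, adjusted p = 2.36e-07). Ncl, the abundant nucleolar protein nucleolin, read 9.65, 9.68 and 9.69 in wildtype, 10.16, 10.16 and 10.26 in Sufu KO and 10.73, 10.66 and 10.40 in the tumours. It rose 1.43-fold (adjusted p = 0.000787) and 1.89-fold (adjusted p = 1.89e-06). Nolc1, a chaperone of small nucleolar particles, rose 1.30-fold and 1.59-fold, and Gnl3, the nucleolar GTP-binding protein nucleostemin, 1.29-fold and 1.76-fold. Mybbp1a, a nucleolar protein that binds Myb and other transcription factors, was up 1.22-fold in Sufu KO (adjusted p = 0.0290) against 1.94-fold in the tumours (adjusted p = 1.95e-06). The mutants differed directly by 0.67 (adjusted p = 0.000140).

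**Figure D2:**
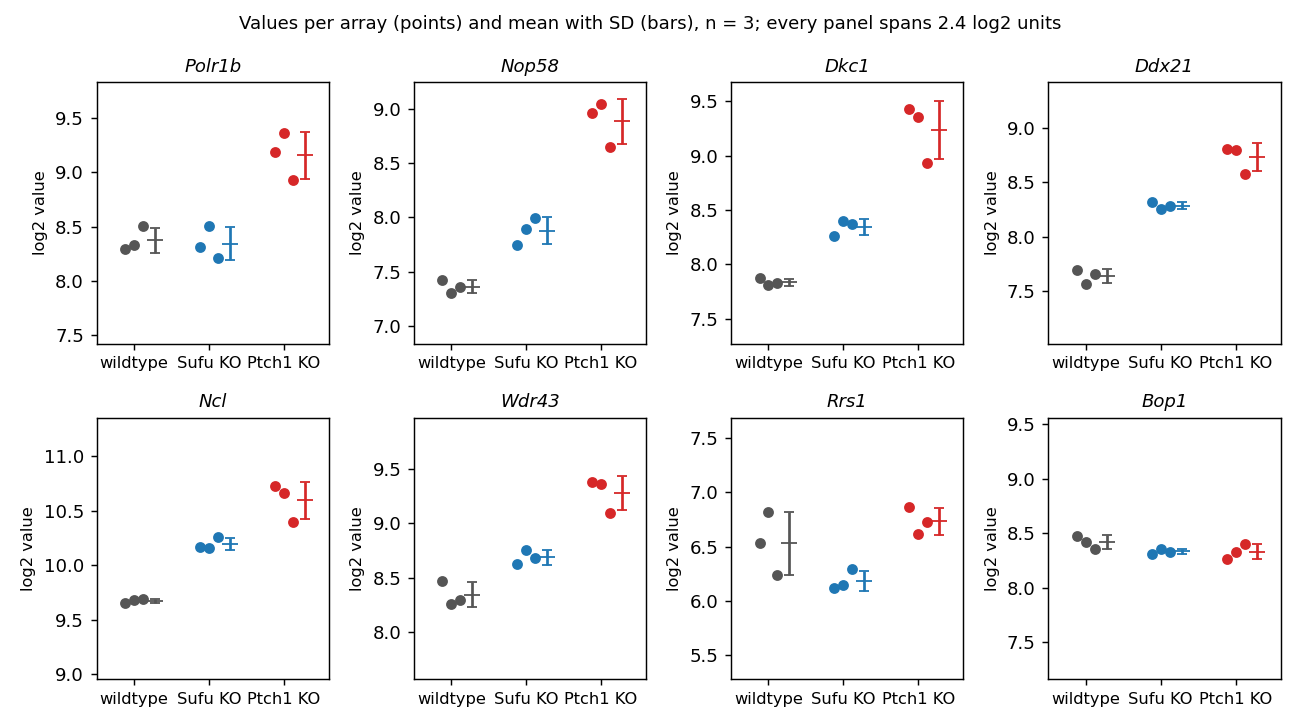
Log2 values of 8 genes on each array (points), with the group mean and SD (n = 3), in panels that each span 2.4 log2 units. Nop58, Dkc1, Ddx21, Ncl and Wdr43 rise without overlap from wildtype to Sufu KO to the tumours, Polr1b is higher in the tumours than in both other groups, Rrs1 is lowest in Sufu KO and Bop1 lies between 8.26 and 8.48 on all arrays.

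Processing factors of the small subunit rose in the tumours in 11 of 12 cases and in Sufu KO in 6 of 12. Wdr43, a component of the early processing assembly, had the largest tumour difference among them, reading 8.47, 8.26 and 8.30 in wildtype, 8.62, 8.76 and 8.68 in Sufu KO and 9.38, 9.36 and 9.10 in the tumours. The 3 groups were apart, with a Sufu KO rise of 1.27-fold (adjusted p = 0.0140) and a tumour rise of 1.91-fold (adjusted p = 2.92e-06). Heatr1, a factor that also links processing to polymerase I transcription, rose 1.23-fold and 1.61-fold. Imp3 and Imp4, which bind the U3 small nucleolar RNA, rose 1.24-fold and 1.16-fold in Sufu KO and 1.40-fold and 1.32-fold in the tumours. The helicase Ddx10 and Noc4l also rose in both. Their Sufu KO calls were narrow, with adjusted p values of 0.0480 for Imp3, 0.0423 for Imp4, 0.0477 for Noc4l and 0.0465 for Ddx10.

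The tumour was the only comparison with wildtype that called Nop14, Rrp9, Wdr75, Utp20 and Tsr1, all components or late factors of small subunit assembly. Direct tests separated tumour from Sufu KO for Nop14 (0.37, adjusted p = 0.00388), Wdr75 (0.42, adjusted p = 0.000977), Utp20 (0.46, adjusted p = 0.00312) and Tsr1 (0.40, adjusted p = 0.00282), but not for Rrp9 (0.10, adjusted p = 0.309). Utp20 read 7.16, 7.26 and 7.31 in wildtype and 7.30, 7.33 and 7.36 in Sufu KO, which overlap. The tumours, at 7.87, 7.96 and 7.55, lay above both. Rrp12, which acts in maturation and export of the subunits, was called nowhere. Its 9 values lay between 6.99 and 7.28, with the lowest in Sufu KO replicate 3.

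For the large subunit, 8 of 10 tested factors rose in the tumours, against 22.1% of all tested genes, and 2 of 10 in Sufu KO, a share near the 13% of all tested genes. The 2 were Pes1 (1.22-fold, adjusted p = 0.0356) and the helicase Ddx18 (1.25-fold, adjusted p = 0.0246). Rrp1b, a nucleolar protein that binds chromatin and early large-subunit particles, had the largest tumour difference of this role. It read 7.15, 7.19 and 7.25 in wildtype, 7.49, 7.46 and 7.57 in Sufu KO and 8.33, 8.11 and 7.79 in the tumours. Although no group overlapped another, Rrp1b passed in the tumours (1.84-fold, adjusted p = 3.02e-05) and missed the threshold in Sufu KO (0.31 ± 0.11, SE, adjusted p = 0.0594). Nop16, Noc3l, Nip7 and Nop2, the last an RNA methyltransferase, rose between 1.33-fold and 1.58-fold in the tumours and did not pass in Sufu KO, where their differences ran from 0.13 to 0.27.

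Pes1, Bop1 and Wdr12 form a stable trimer, and they did not read alike. Pes1 read 7.88, 7.99 and 7.82 in wildtype and 8.69, 8.69 and 8.40 in the tumours, a 1.62-fold rise (adjusted p = 3.62e-05). Wdr12 rose 1.61-fold (adjusted p = 0.000635). Bop1 read 8.48, 8.42 and 8.35 in wildtype, 8.31, 8.35 and 8.33 in Sufu KO and 8.26, 8.33 and 8.40 in the tumours. All 3 groups of Bop1 overlapped or touched, and its tumour difference of -0.09 had a 95% interval from -0.23 to 0.06, below the intervals of Pes1 (0.50 to 0.90) and Wdr12 (0.41 to 0.97). Whether the 3 genes differ from each other was not tested.

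Rrs1, a factor that brings the 5S particle into the large subunit, had the lowest Sufu KO difference of the 39 genes, 5 of which were negative there. It read 6.54, 6.82 and 6.24 in wildtype, 6.12, 6.15 and 6.29 in Sufu KO and 6.86, 6.61 and 6.72 in the tumours. Wildtype overlapped both mutants, although Sufu KO replicates 1 and 2 lay below every wildtype array and tumour replicate 1 above, and neither mutant passed against it (-0.34, adjusted p = 0.0624, and 0.20, adjusted p = 0.217). The tumours lay above Sufu KO on every array, 1.46-fold (0.55 ± 0.12, SE, adjusted p = 0.00512). The Sufu KO difference passed without wildtype replicate 3 (-0.49), with array weights (-0.40) and with median centring (-0.35). Under a filter at the array median Rrs1 was the only one of the 39 genes not to pass.

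**Figure D3:**
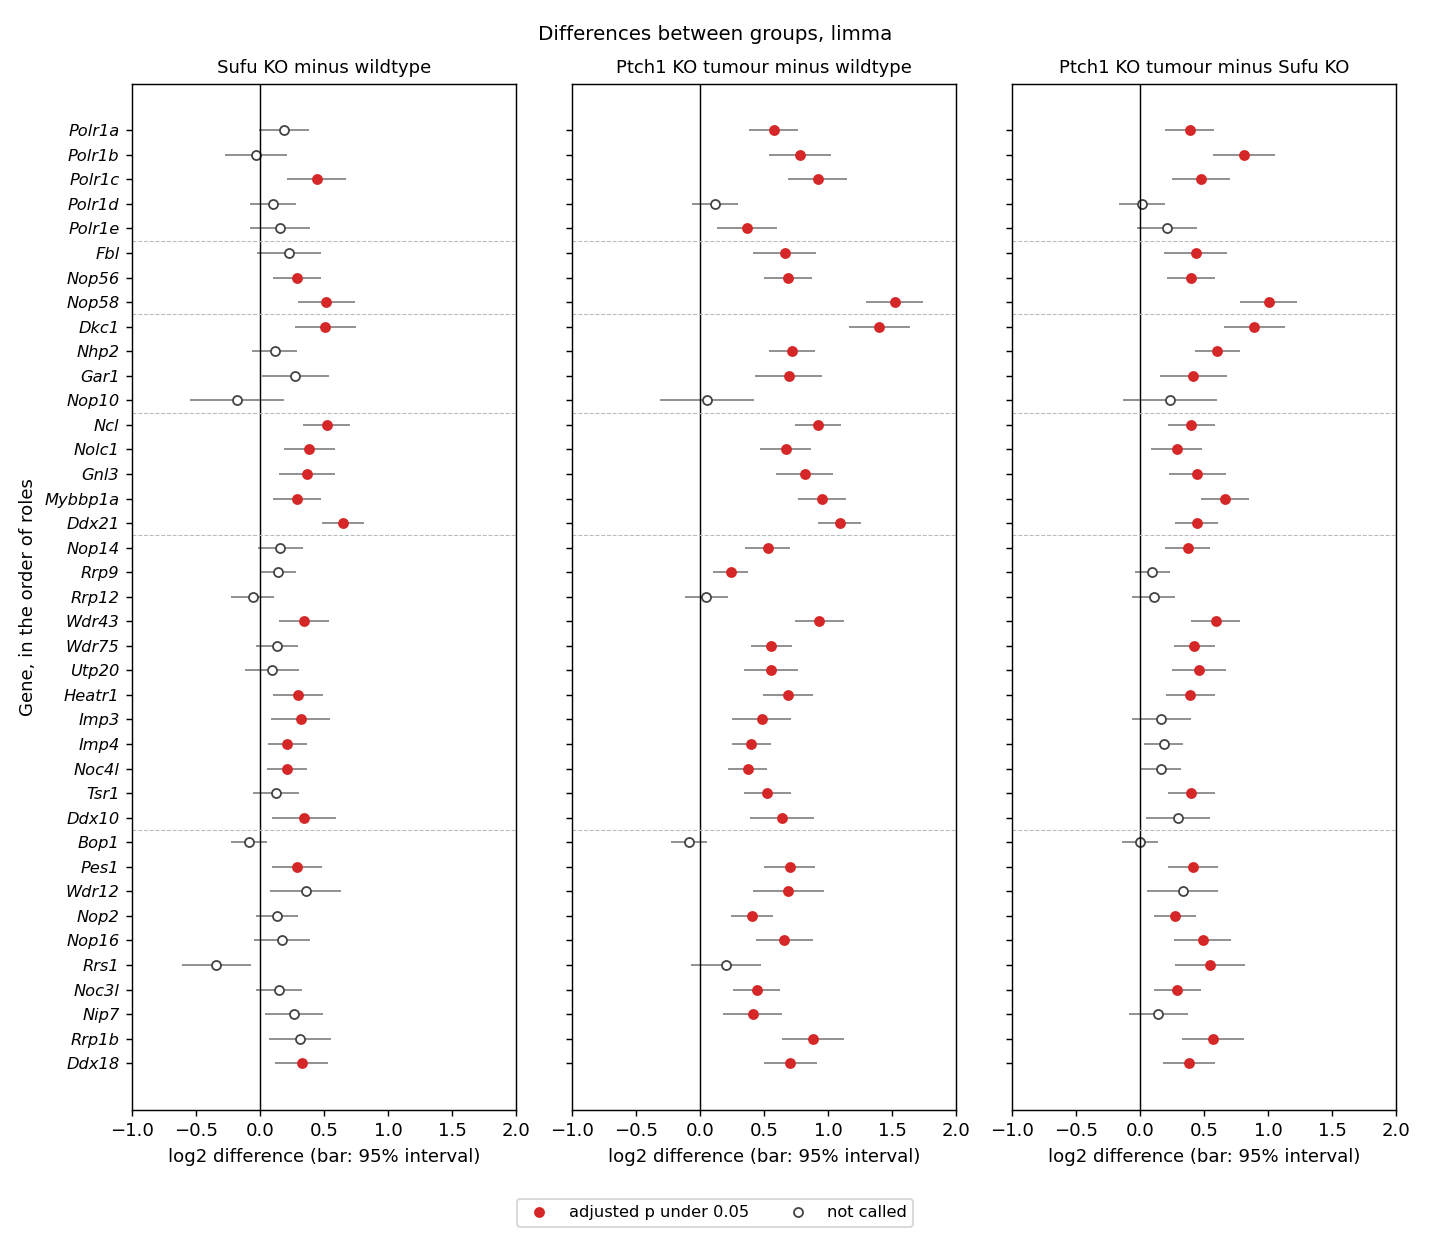
Log2 differences of the 39 genes in the 3 comparisons, with 95% intervals from limma as bars, in the order of roles from RNA polymerase I at the top to the large subunit at the bottom. Filled points passed an adjusted p of 0.05; 17, 34 and 27 points are filled from left to right, and no filled point lies below 0.

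The Sufu KO calls were less firm than the tumour calls. Nop58, Dkc1, Ncl, Nolc1 and Ddx21 were called in Sufu KO under all 22 alternatives, and each of the other 12 calls ended under at least 1 of them. The count of 17 became 8, 9 and 8 without wildtype replicate 1, 2 or 3, and 13, 9 and 9 without Sufu KO replicate 1, 2 or 3. In the tumours 33 of 34 calls held under all 22 alternatives, the exception being Polr1e. Between tumours and Sufu KO 21 of 27 calls held, and those of Fbl, Gar1, Nolc1, Nop2, Noc3l and Ddx18 ended under at least 1 alternative.

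Genes of the same pathway outside the 39 were read from a separate list of 139, of which 134 were tested. In the tumours 94 rose (70.1%) and 3 fell, against 22.1% of all tested genes called higher and 24.7% lower. In Sufu KO 35 rose (26.1%) and 1 fell, against 13% higher and 12.4% lower. The medians were 0.38 in the tumours and 0.15 in Sufu KO. Factors of small nucleolar particle assembly rose in the tumours in 10 of 11 cases, the exosome and other trimming nucleases in 14 of 16, large-subunit factors in 33 of 45 and small-subunit factors in 28 of 47. Other factors of polymerase I and its initiation rose in 9 of 15 cases. These counts by role are read against the same 22.1%. Npm1, the nucleolar chaperone nucleophosmin, was up 2.29-fold in tumour (adjusted p = 1.82e-06) and 1.40-fold in Sufu KO (adjusted p = 0.00562). Eri1, an exonuclease that trims ribosomal and histone RNA ends, rose 2.20-fold and 1.45-fold. Isg20l2, a nucleolar exonuclease, rose 2.02-fold in the tumours and 1.58-fold in Sufu KO, and Exosc8, an exosome core subunit, 2.02-fold and 1.49-fold. Ddx31, a nucleolar helicase, rose 1.44-fold (adjusted p = 0.000415) in Sufu KO and 1.83-fold in the tumours.

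The genes of that list that fell in the tumours were Polr2l, Ddx24 and Gnl3l. Polr2l, a small subunit common to the nuclear polymerases, fell 1.62-fold (adjusted p = 1.31e-05), and it also fell 1.19-fold in Sufu KO (adjusted p = 0.0383), a call that ended under 12 of the 22 alternatives. Ddx24, a nucleolar helicase, fell 1.39-fold in the tumours (adjusted p = 0.000110), and Gnl3l, a relative of Gnl3, fell 1.32-fold (adjusted p = 0.000211). Gnl3 and Gnl3l thus read in opposite directions in the tumours.

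**Figure D4:**
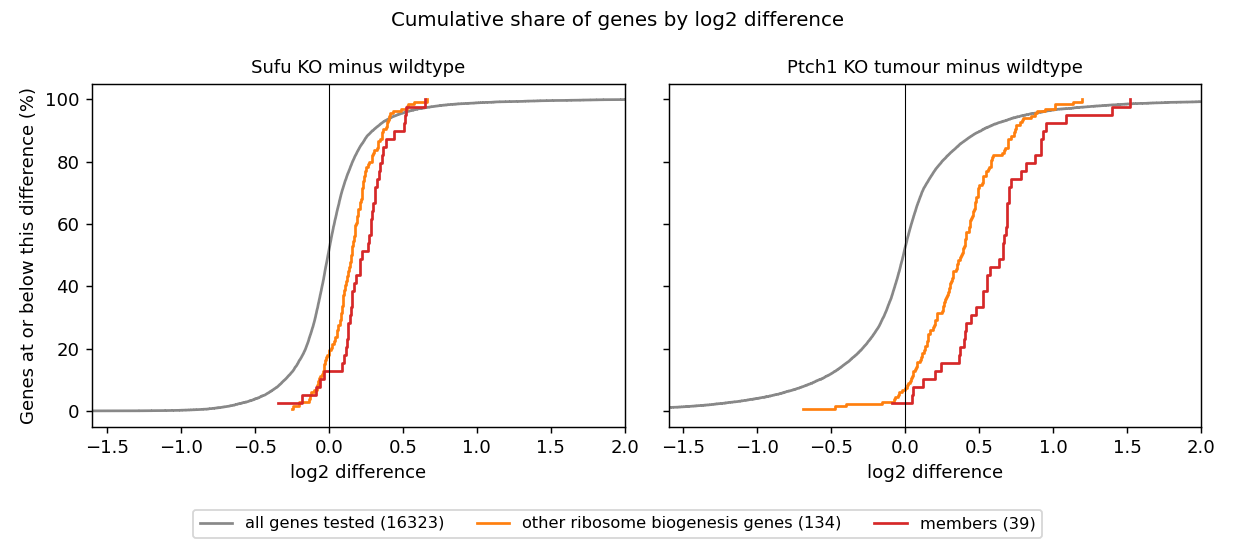
Share of genes (vertical axis, percent) at or below each log2 difference (horizontal axis) for the 39 genes, the 134 other pathway genes and all 16323 tested genes, in Sufu KO (left) and the tumours (right). The curve of the 39 genes lies to the right of both others over most of its range, with medians of 0.23 and 0.66.

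Genes with known links to this programme were read in the same fit. Mycn, the Myc family member of granule neuron progenitors, was up 3.28-fold in Sufu KO (adjusted p = 1.62e-06) against 6.95-fold in tumour (adjusted p = 5.26e-09). Mycl rose 1.50-fold (adjusted p = 0.00287) and 2.84-fold (adjusted p = 5.24e-07). Myc read 6.76, 6.63 and 6.63 in wildtype, 6.46, 6.86 and 6.94 in Sufu KO and 8.20, 8.13 and 7.77 in the tumours. The tumour rise was 2.57-fold (adjusted p = 2.98e-06), while the Sufu KO arrays overlapped wildtype (0.08, adjusted p = 0.720). The whole list of 11 Myc network genes, which includes these, did not rise as a set. In Sufu KO 2 of the 11 rose and 0 fell, against 13% of all tested genes called higher and 12.4% lower. In the tumours 6 rose and 3 fell, against 22.1% called higher and 24.7% lower. Among 29 tested genes for cytosolic ribosomal proteins, 14 rose in Sufu KO and 26 in the tumours, with medians of 0.25 and 0.86. Of all tested genes, 13% rose in Sufu KO and 22.1% in the tumours. Among 28 genes for proteins of the mitochondrial ribosome, which is assembled outside the nucleolus, 0 were called in Sufu KO by limma. At an unadjusted limma p under 0.05 the Sufu KO count was also 0. In the tumours 7 of the 28 rose (25%), a share near the 22.1% of all tested genes. The medians were 0.04 in Sufu KO and 0.12 in the tumours.

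Promoter sequences were taken from a RefSeq table of build GRCm38.p6, which held 35 of the 39 genes, over 250 bases before and 50 after each start. The E-box CACGTG, the site preferred by Myc with its partner Max and the same on both strands, was found in 7 of the 35 genes (20%), against 10.7% of 12843 tested genes in the table and 7.15% of all its promoters. Each is given with 30 bases in the direction of transcription and the E-box in capitals, because 5 of the 7 matches lie just downstream of the start. Whether these sites bear on the tumour rise was not tested.
Imp4 (chr1:34439696-34439725, plus strand, 121 bases before the start): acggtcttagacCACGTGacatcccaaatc
Nop2 (chr6:125131811-125131840, plus strand, 60 bases before): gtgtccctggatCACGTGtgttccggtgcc
Pes1 (chr11:3963965-3963994, plus strand, 2 bases after): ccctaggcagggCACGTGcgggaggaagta
Wdr43 (chr17:71616220-71616249, plus strand, 17 bases after): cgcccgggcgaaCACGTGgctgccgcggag
Tsr1 (chr11:74898092-74898121, plus strand, 24 bases after): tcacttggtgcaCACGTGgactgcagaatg
Utp20 (chr10:88826765-88826794, minus strand, 37 bases after): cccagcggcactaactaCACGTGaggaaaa
Mybbp1a (chr11:72441347-72441376, plus strand, 40 bases after): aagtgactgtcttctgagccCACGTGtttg

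All 7 of these genes rose in the tumours, between 1.32-fold for Imp4 and 1.94-fold for Mybbp1a. Since 34 of the 39 genes rose there, this does not set genes with an E-box apart from the rest. The 3 genes with the largest tumour differences, Nop58, Dkc1 and Ddx21, had no E-box in this window. In the stretch from the start base to 49 bases after it, 5 of 35 genes (14.3%) held the E-box, against 1.61% of tested genes. In the 250 bases before the start it was 2 of 35 (5.71%) against 9.16%. This split was chosen after the positions were seen.

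A second motif, CCGGAAGT, preferred by factors of the ETS family and searched on both strands, was also found in 7 of 35 genes (20%), against 7.05% of tested genes and 3.89% of all promoters. Upstream matches are shown for Gar1 and Nhp2, of the same box H/ACA particle, and for the polymerase subunit Polr1c. The motif or its reverse complement is in capitals. Matches nearer to the start, in Heatr1 (16 bases before) and Tsr1 (1 base before), are not shown.
Gar1 (chr3:129831422-129831451, minus strand, 44 bases before): cgcgccgccacACTTCCGGaaacgtcgcgt
Polr1c (chr17:46248069-46248098, minus strand, 42 bases before): ccacttgacgtCCGGAAGTgaaggacgtgg
Nhp2 (chr11:51619739-51619768, plus strand, 23 bases before): cacttgaaaacCCGGAAGTgatgtcggagg

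Gar1 and Nhp2 sit in the same box H/ACA particle and rose 1.61-fold and 1.64-fold in the tumours. The others were Nip7, Heatr1, Tsr1 and Polr1e. Tsr1 is the only gene of the 35 with both motifs, which do not overlap. The ZBTB33 and NRF1 motifs, both palindromes, were found in 0 of 35 genes, against 0.934% and 1.88% of tested genes. Matches describe the sequence and do not show binding.

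Fbl, Ddx18, Wdr12 and Polr1d each had a second, dimmer probe set. For all 4 genes the brighter probe set, which stands for the gene above, is numbered among probe sets of another chromosome, while the second is numbered among those of the gene's own chromosome. For Fbl on chromosome 7 the 20 nearest named probe sets by number included 17 on chromosome 17. For Ddx18 on chromosome 1 they included 17 on chromosome 6, for Wdr12 on chromosome 1 they included 18 on chromosome 7, and for Polr1d on chromosome 5 all 20 lay on chromosome 4. This was so for 4 of the 39 genes and for 313 of 19855 genes checked (1.58%), and whether the brighter probe sets also read other loci was not tested.

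The second probe sets gave the same directions against wildtype. In the tumours Fbl rose 1.51-fold on it (adjusted p = 0.00214), Ddx18 1.45-fold (adjusted p = 0.0353) and Wdr12 1.83-fold (adjusted p = 5.70e-05), while Polr1d read 0.08 (adjusted p = 0.597). In Sufu KO Wdr12 passed on the second probe set (0.48, adjusted p = 0.0103), Ddx18 did not (0.24, adjusted p = 0.413), and Fbl (0.31, adjusted p = 0.100) and Polr1d (0.16, adjusted p = 0.327) did not pass. On the second probe set of Ddx18, wildtype replicate 1 read 7.19 against 8.06 on both other wildtype arrays, and those 2 arrays overlapped Sufu KO, at 7.91, 8.01 and 8.13. Between tumours and Sufu KO the calls of Fbl and Ddx18 ended on the second probe set (adjusted p = 0.131 and 0.307), Wdr12 passed there (0.39, adjusted p = 0.0235), and Polr1d turned to -0.08 (adjusted p = 0.666). P-values of second probe sets come from a limma fit over all single-gene probe sets.

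**Figure D5:**
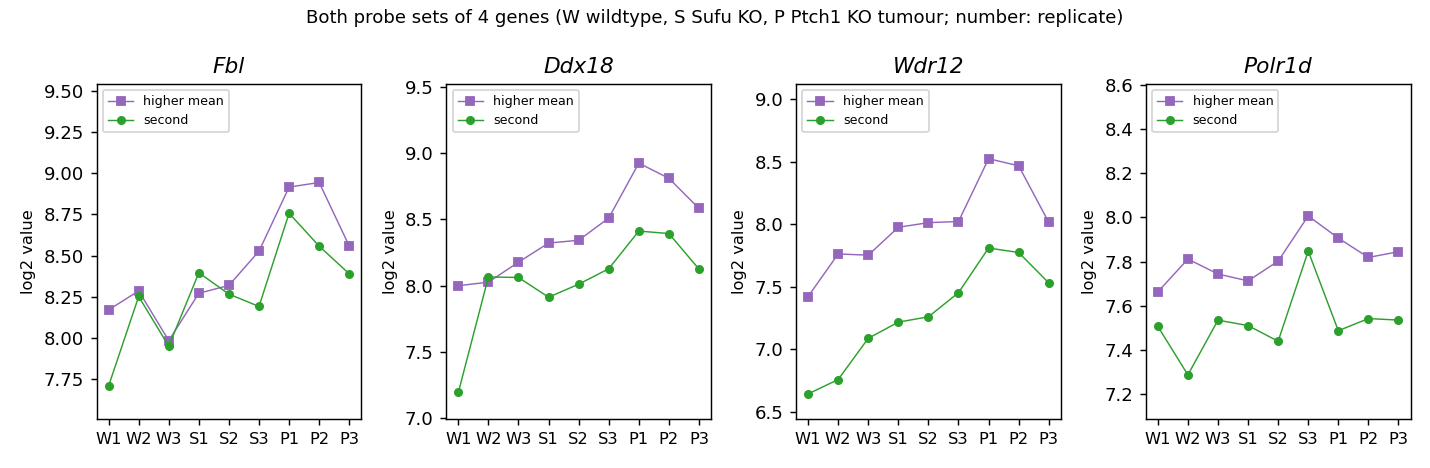
Log2 values of both probe sets of Fbl, Ddx18, Wdr12 and Polr1d on the 9 arrays, with squares for the brighter probe set and circles for the second, and lines that only join the points of a probe set. Tumour replicates 1 and 2 are above every other array for Fbl, Ddx18 and Wdr12 on both probe sets, and Polr1d stays between 7.66 and 8.01 on its brighter probe set.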

How the data were processed

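RNA of 9 samples was measured on Affymetrix Mouse Gene 1.0 ST arrays. The authors deposited log2 values for 35556 probe sets. How these were background-corrected and normalized is not stated in the labels. GEO's platform annotation tied 21789 probe sets to 1 gene, 1621 to several and listed no gene for 12146, and 21698 were matched by gene ID to RefSeq. A gene was represented by its single-gene probe set with the highest mean. Genes above the 25th percentile of an array on at least 3 arrays were tested (16323). All 9 arrays were fitted together, each group with its own mean, in limma 3.58.1 in R 4.3.3 (eBayes, two-sided p-values, Benjamini-Hochberg adjustment over all tested genes, threshold 0.05). The fit was also run on simulated data with independent noise and shifts larger than most differences seen here. That run does not check the calls of small differences. "Rose", "fell" and "called" refer to this threshold, and fold changes are 2 to the power of the log2 difference. The array medians ran from 6.72 to 6.79.

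The 39 genes and the other lists were chosen with earlier results of these data known. Any of the 39 genes could be named, and of the other pathway genes the 4 highest and 4 lowest called against wildtype. Alternatives covered the filter, prior, array weights, groups fitted, replicate block, normalization, probe set choice, sex, an unmoderated model and each array left out. Choosing probe sets by the chromosome of their neighbours was added after seeing the data. Promoters came from RefSeq (GRCm38.p6). Python 3.11.15, pandas 2.3.3 and matplotlib 3.10.9 were used.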

Additional observations from a re-analysis of the deposited data

Results flagged for a closer look

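Polr1b and Rrs1 stood out because their differences from wildtype had opposite signs in Sufu KO and in the tumours, and the direct comparison of the mutants passed the threshold. Polr1b was 0.81 higher in the tumours than in Sufu KO on the log2 scale (limma adjusted p = 0.000192), and Rrs1 was 0.55 higher (adjusted p = 0.00512). Neither Sufu KO difference from wildtype passed, so a fall in Sufu KO was not shown for either gene.

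Signal was also present in second probe sets, which did not enter the main comparisons. In the tumours the second probe set of Fbl was 0.60 above wildtype, that of Ddx18 0.54 and that of Wdr12 0.87, all on the log2 scale and all called by limma. That of Wdr12 was 0.48 above wildtype in Sufu KO and was called, where the main probe set of Wdr12 read 0.36 and was not (adjusted p = 0.0588).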

How the results depend on the processing

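The count of 34 genes higher in the tumours than in wildtype stayed between 33 and 35 under all alternatives. The count of 27 against Sufu KO ran from 22 to 31 when each array was left out. Array weights added 8 calls to it, and the unmoderated model ended 4. The Sufu KO count of 17 moved most: array weights gave 26 higher and 2 lower, the unmoderated model 7 higher, and median centring 1 lower. Leaving out each array gave 8 to 21 higher and 0 to 1 lower. The labels do not state that replicate numbers pair the samples. Residual correlations of same-numbered arrays ran from -0.31 to 0.35. They cannot decide whether samples were paired, since arrays with different numbers were not compared. With the replicate block the counts were 13, 34 and 27.

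Among other pathway genes, array weights gave 72 higher and 8 lower in Sufu KO, against 35 and 1. The lower count was 2 with the median filter, the trended prior or quantile normalization. It was 0 with only the compared groups, median centring, the sex covariate, the unmoderated model or own-chromosome probe sets. Leaving out arrays gave 19 to 42 higher and 0 to 3 lower. Tumour against Sufu KO, 64 higher became 39 in the unmoderated model and 38 to 72 without an array.

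Signs turned only where the main fit made no call, and the cause was not tested. Of these, Nop10 in Sufu KO was called lower with array weights and without Sufu KO replicate 3. Polr1b in Sufu KO read 0.14 with array weights, 0.0029 with the sex covariate, and 0.032 and 0.033 without wildtype or Sufu KO replicate 3 (lowest without an array -0.12). Polr1d between mutants read -0.031 with averaged probe sets, -0.078 with the own-chromosome probe set, and -0.048, -0.0030 and -0.0087 without Sufu KO replicate 1 or 2 or tumour replicate 1 (highest 0.099). Nop10 read 0.050 in Sufu KO with the sex covariate, and -0.022 and -0.016 in the tumours without wildtype or tumour replicate 1 (highest 0.13). Rrp12 read 0.012 with array weights and 0.022 without replicate 3 in Sufu KO (lowest -0.098), and -0.017 in the tumours with the sex covariate. Bop1 between mutants read 0.014 with quantile normalization, and 0.011, 0.033 and 4.9e-05 without Sufu KO replicate 2 or tumour replicate 1 or 2 (lowest -0.035). Ptch1 read 0.037 in Sufu KO with the sex covariate, and Myc -0.011 without Sufu KO replicate 3 (highest 0.23). With 3 arrays a group, small differences were not resolvable.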
